A study of Rattus norvegicus with 5 samples.

Results

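The genes described here are those of the major histocompatibility complex (MHC) of the rat, called RT1, and of the pathway that supplies it with peptides. They were taken by name: every probe set whose only gene symbol began with RT1-, or was B2m, Tap1, Tap2, Tapbp, Cd74, Ciita, Nlrc5, Psmb8, Psmb9, Psmb10, Psme1, Psme2 or Erap1. This gave 47 genes, by 51 probe sets, of the 14506 genes and 29215 probe sets measured. Where a gene had several probe sets, the one with the highest mean intensity stands for it. Nlrc5 was not analysed here, because no probe set had it as its only symbol. Another 4 probe sets carried several RT1 symbols and belonged to no member, and among them was the only one listing RT1-A genes.

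The samples were total RNA of proximal tubular cells, taken from kidneys of Sprague-Dawley rats, all of them with type I diabetes, which both groups therefore shared. One group, on 3 arrays from 3 animals, had been treated with C-peptide, the part of proinsulin that is released with insulin, for 2 h. The other, on 2 arrays from 2 animals, was untreated. Sprague-Dawley is an outbred stock, and neither RT1 haplotypes nor the dose, the rats' age or the way diabetes arose were given in the sources used here. The comparison asks how C-peptide alters transcription within hours.

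MHC class I molecules sit on almost all nucleated cells and show peptides from the cell's own proteins to CD8 T cells and natural killer cells. The peptides are cut by the proteasome, which takes on the inducible subunits Psmb8, Psmb9 and Psmb10 under interferon gamma, carried into the endoplasmic reticulum by the transporter Tap1-Tap2, trimmed by Erap1 and loaded with the help of tapasin (Tapbp) onto a heavy chain held by B2m. Class II molecules are pairs of an alpha and a beta chain that show peptides from the endocytic route to CD4 T cells. They are found chiefly on dendritic cells, macrophages and B cells, and tubular and endothelial cells can be induced to make them.

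The starts of 6 genes are shown because they stand for the light chain, a heavy chain, peptide transport, the inducible proteasome and class II, and because MHC promoters are known for the motifs marked in them. Each run is 5′ to 3′ on the gene's strand, from 250 bases before to 30 bases after the start in RefSeq (GRCr8). Capitals mark an interferon-stimulated response element (ISRE, searched as GAAA, any 2 bases and GAAA), a gamma-activated site (GAS, TTCNNNGAA) or a Y box (CTGATTGG, bound by the factor NF-Y), on either strand.
B2m, on the + strand at chr3:129549080-129549359, and RT1-S3, on the + strand at chr20:2675278-2675557:
B2m: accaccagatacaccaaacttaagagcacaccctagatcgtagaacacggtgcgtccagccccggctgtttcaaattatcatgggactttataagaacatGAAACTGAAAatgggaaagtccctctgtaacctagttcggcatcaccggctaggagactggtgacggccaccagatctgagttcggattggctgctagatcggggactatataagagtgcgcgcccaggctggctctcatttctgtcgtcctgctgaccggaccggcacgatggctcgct
RT1-S3: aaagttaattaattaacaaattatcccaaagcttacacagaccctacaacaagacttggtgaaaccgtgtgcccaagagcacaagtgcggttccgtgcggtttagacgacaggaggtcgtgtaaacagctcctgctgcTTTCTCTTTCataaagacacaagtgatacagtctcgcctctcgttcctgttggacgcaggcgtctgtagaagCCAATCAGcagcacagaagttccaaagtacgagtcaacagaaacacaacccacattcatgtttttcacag
Tap1, on the - strand at chr20:4668514-4668793, and Psmb9, on the + strand at chr20:4668750-4669029:
Tap1: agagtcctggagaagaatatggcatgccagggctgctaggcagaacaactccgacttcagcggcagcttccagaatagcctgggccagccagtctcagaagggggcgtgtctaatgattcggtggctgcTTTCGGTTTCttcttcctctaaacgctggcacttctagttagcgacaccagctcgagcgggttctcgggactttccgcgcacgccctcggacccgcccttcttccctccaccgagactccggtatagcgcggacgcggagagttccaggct
Psmb9: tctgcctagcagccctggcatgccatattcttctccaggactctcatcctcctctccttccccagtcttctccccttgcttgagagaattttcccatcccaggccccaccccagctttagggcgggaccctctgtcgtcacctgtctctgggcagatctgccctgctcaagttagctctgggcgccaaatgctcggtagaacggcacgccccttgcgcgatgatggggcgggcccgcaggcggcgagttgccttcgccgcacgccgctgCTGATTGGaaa
Psmb8, on the - strand at chr20:4657002-4657281, and RT1-Bb, on the - strand at chr20:4604089-4604368:
Psmb8: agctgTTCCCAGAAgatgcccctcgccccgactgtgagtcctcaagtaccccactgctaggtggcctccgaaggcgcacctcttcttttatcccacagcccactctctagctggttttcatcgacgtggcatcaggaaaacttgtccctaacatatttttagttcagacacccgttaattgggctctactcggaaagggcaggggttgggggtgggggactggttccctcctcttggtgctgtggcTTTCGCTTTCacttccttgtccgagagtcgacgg
RT1-Bb: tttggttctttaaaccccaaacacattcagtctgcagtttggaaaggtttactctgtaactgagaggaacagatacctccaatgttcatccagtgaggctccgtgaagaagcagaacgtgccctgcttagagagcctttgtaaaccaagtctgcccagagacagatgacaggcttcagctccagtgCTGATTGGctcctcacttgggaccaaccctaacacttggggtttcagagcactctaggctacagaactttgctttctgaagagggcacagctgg
Tap1 and Psmb9 are neighbours that run apart from each other, and their windows of 300 bases share 44 bases.

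Of the 47 genes, 41 had such a window of 300 bases, from 250 before to 50 after the start. The ISRE letters were found in 6 of 8 antigen processing genes (75%), 4 of 24 class I genes (16.7%) and 0 of 9 class II genes, against 3.92% of all 33469 windows. The Y box was in 6 of 9 class II genes (66.7%), 8 of 24 class I genes (33.3%) and 1 of 8 antigen processing genes (12.5%), against 3.50% of all windows. The GAS letters were in 2 of the 41 (4.88%), Psmb8 and RT1-M3-1, against 8.87%. Of the genes shown, RT1-S3 was the only class I gene of the series' windows with both the ISRE letters and a Y box. The Y box of Psmb9 lay after the start. A match describes these letters only.

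The antigen presentation genes as a whole lay lower on the C-peptide arrays, most of all class I. The class II accessory genes and Ciita had a median near 0, although Cd74 among them lay lower, with overlapping groups. The median log2 difference, C-peptide minus untreated, was -0.34 over the 47 genes, -0.49 over 27 class I genes including B2m, -0.32 over 9 antigen processing genes and -0.23 over 11 class II genes. It was 0.03 over all genes measured. Of the 47, 42 lay below 0, against 45.1% of all genes. In 33 all C-peptide arrays lay below both untreated arrays (background 14.9%), and in 0 all lay above (background 18.7%). These differences come from log2 intensities after quantile normalisation, which gives every array the same distribution.

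None of the 47 passed at an adjusted p of 0.05 in limma, the linear model fitted over all probe sets with Benjamini-Hochberg adjustment, and neither did any other gene (background 0%). At an unadjusted p under 0.05 there were 21, all lower, where the background was 7.14% lower and 5.95% higher. That count was 11 without the array of untreated animal 1. The smallest adjusted p among them was 0.0955, for RT1-S3. In 4 alternative fits some members did pass, all of them lower: 3 with a pseudocount of 64, 7 among the brighter probe sets, 8 among probe sets with 1 symbol and 4 with a trended and robust prior. Together these were 9 genes, RT1-S3, RT1-T24-4, RT1-CE13, RT1-CE10, RT1-CE16, RT1-O1, RT1-M6-2, Psmb8 and Psmb9. The direction of the members named as lower below was the same in the values as deposited, where 20 were lower at an unadjusted p under 0.05 (background 7.03%) and 0 higher (background 0.614%), and the median of the 47 was -0.39 relative to all probe sets.

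**Figure D1:**
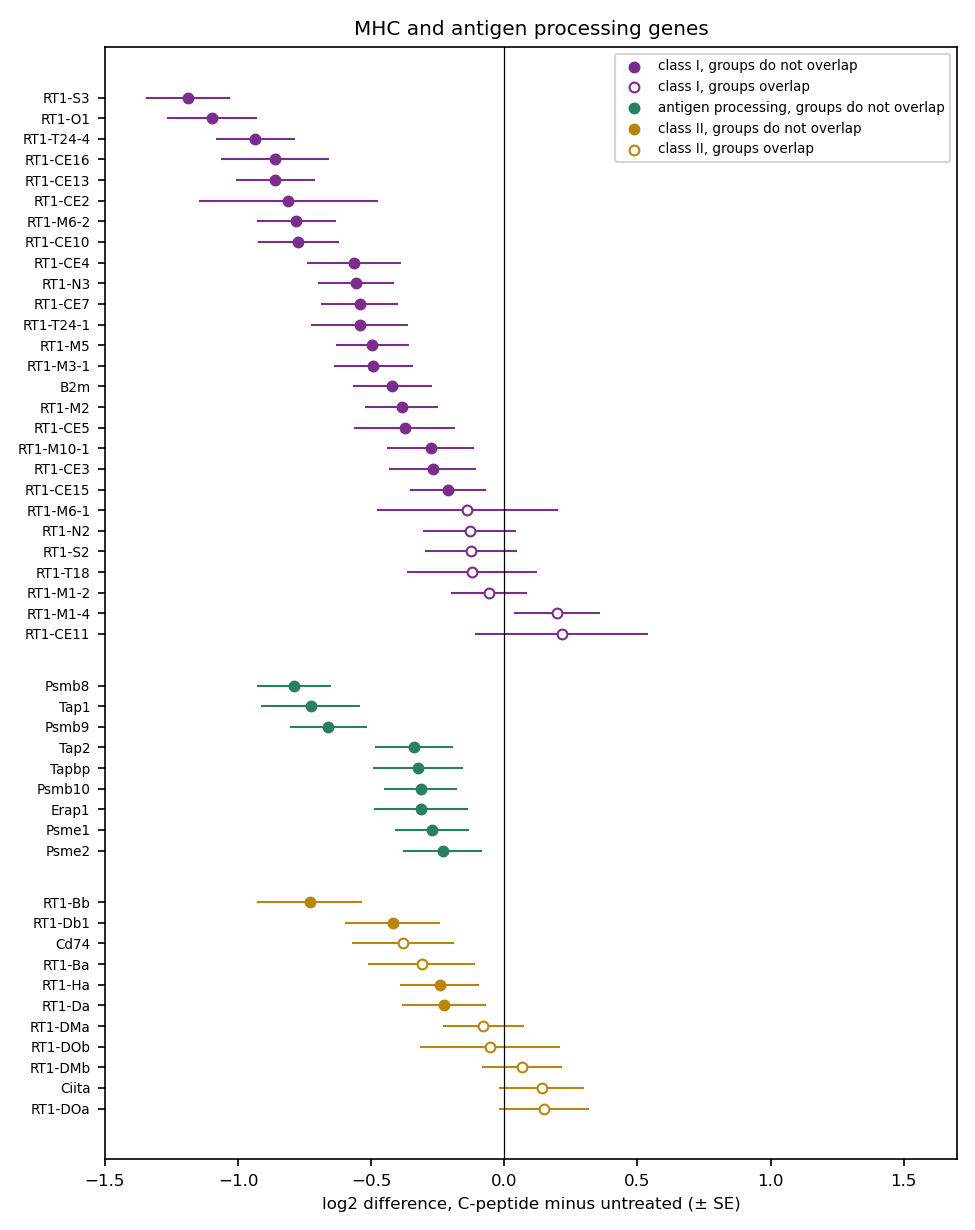
Log2 difference, C-peptide minus untreated, of the 47 genes by role, with its standard error (3 and 2 arrays); filled points are genes whose groups do not overlap. Class I runs from -1.19 for RT1-S3 to 0.22 for RT1-CE11, all 9 antigen processing genes lie below 0, and 7 of the 11 class II genes have groups that overlap.

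B2m, the light chain that every class I molecule needs, read 6866 and 7733 on the untreated arrays (normalised intensity) and 5412, 5926 and 5023 after C-peptide, in the order of animals 1, 2 and 3 that is kept throughout. The groups did not overlap. The log2 difference was -0.42 ± 0.15 (SE), with an adjusted p of 0.364 in limma. It was smaller in the values as deposited, at -0.25 relative to all probe sets.

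RT1-S3 had the smallest p among the heavy chains. It is the rat counterpart of mouse H2-T23 (Qa-1), a non-classical molecule that shows leader peptides of other class I chains to a receptor on natural killer cells. RT1-S3 read 384 and 359 on the untreated arrays and 147, 179.6 and 139 on the C-peptide arrays, a 2.28-fold lower level with no overlap. The log2 difference was -1.19 ± 0.16 (SE; adjusted p = 0.0955 in limma), and lay below 0 in all 15 alternatives. Its adjusted p was between 0.0117 and 0.0385 in the 4 fits that called members, and over all 15 it ran from 0.0117 to 0.758.

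RT1-S3 stood in a stretch of non-classical genes with the letters N, O, S and T, of which 8 were measured. All 8 lay below 0, 5 of them without overlap, with a median of -0.55. RT1-O1 read 105 and 96.5 untreated and 44.6, 42.1 and 29.7 with C-peptide, a difference of -1.10 ± 0.17 (adjusted p = 0.10 in limma). For RT1-T24-4 the untreated arrays were at 683 and 736 and the C-peptide arrays at 362, 401 and 329, a difference of -0.94 ± 0.15 (adjusted p = 0.108 in limma). In both, the 2 groups stood well apart. Which of RT1-S3 and RT1-O1 differed more depended on the setting: with a pseudocount of 1 they were at -1.27 and -1.37, and without C-peptide animal 1 at -1.16 and -1.21. A further probe set of RT1-T24-4 was at -1.05 ± 0.19, so its 2 probe sets ran alike. RT1-T24-1 was at -0.54 ± 0.18, from 378 and 319 to 283, 222 and 202. RT1-N3 was at -0.56 ± 0.14, from 177 and 183 to 106, 126 and 120.2. Neither of these overlapped. The groups of RT1-N2 (-0.13), RT1-S2 (-0.13) and RT1-T18 (-0.12) overlapped, and the sign of RT1-T18 turned in 3 of its 14 alternatives.

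The RT1-C/E region holds a row of closely related class I genes, of which 10 had a probe set of their own. They had a median of -0.55, with 9 below 0 and without overlap and 6 at an unadjusted p under 0.05. RT1-CE13 read 1229.7 and 1079.5 untreated against 658, 652 and 577 with C-peptide. That was 1.81-fold lower, -0.86 ± 0.15 on the log2 scale (adjusted p = 0.116 in limma). RT1-CE16 was at -0.86 ± 0.20, from 358 and 303 to 201, 196 and 134. RT1-CE10 was at -0.77 ± 0.15, from 342 and 366 to 212, 217 and 175. In each of these the lowest untreated array was well above the highest C-peptide array.

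For RT1-CE7 the 2 probe sets differed in size. The brighter was at -0.54 ± 0.14, from 1333 and 1128 to 825, 864 and 821, and the dimmer at -1.17 ± 0.15, from 342 and 359 to 168, 145 and 130.3, with no overlap in either. RT1-CE4 was at -0.56 ± 0.18, from 861 and 895 to 484, 617 and 683. RT1-CE2, a dim probe set, was at -0.81 ± 0.34, from 63.0 and 70.6 untreated, where the array of C-peptide animal 1 read 12.1 and the other two 44.9 and 45.1. RT1-CE5, RT1-CE3 and RT1-CE15, at -0.37, -0.27 and -0.21, had unadjusted p values above 0.05. RT1-CE11 was the exception, at 0.22 ± 0.32 with overlapping groups. Its C-peptide arrays read 60.7, 106 and 159 and its untreated arrays 98.1 and 74.3.

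Class I heavy chains are close copies of each other, so probe sets can pick up one another's RNA and the members are not independent measurements. How much they do was not tested. The 4 probe sets that list several RT1 symbols, which are no members, lay between -0.72 and -0.54, all without overlap.

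The RT1-M genes, at the far end of the complex, had a median of -0.33 over 8, with 7 below 0, 5 without overlap and 4 at an unadjusted p under 0.05. RT1-M3-1 encodes a molecule that binds formylated peptides of bacteria and mitochondria. It read 83.2 and 85.6 untreated and 50.3, 52.4 and 64.1 with C-peptide, a difference of -0.49 ± 0.15 (adjusted p = 0.289 in limma). RT1-M6-2 was lower by more, at -0.78 ± 0.15, from 307 and 290.4 to 179.6, 148 and 175. Its neighbour RT1-M6-1 was at -0.14 ± 0.34, with C-peptide arrays scattered from 156 to 404 around the untreated 289 and 249. RT1-M5 was at -0.50 ± 0.14, from 202 and 188 to 127, 134 and 141, and RT1-M2 at -0.39 ± 0.14, from 261 and 257 to 205, 182 and 196. Both of these stood apart. RT1-M10-1 (-0.28) and RT1-M1-2 (-0.06) were among the dimmest of the table, at brightness percentiles of 11.3 and 7.38, and RT1-M1-4 was at 0.20 with overlap. Over class I, 16 of 27 had an unadjusted p under 0.05, a count of 9 without untreated animal 1 and 11 without untreated animal 2.

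**Figure D2:**
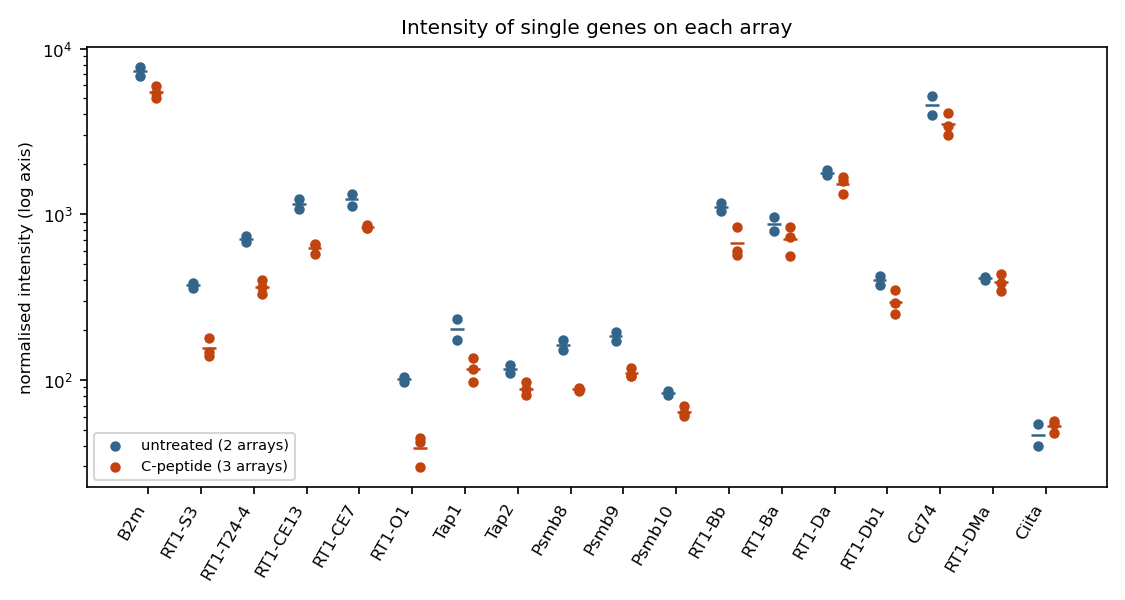
Normalised intensity (log axis) of 18 genes on each array, with group means as short lines: untreated in blue (2 arrays), C-peptide in orange (3 arrays). The groups stand apart for the class I, Tap and inducible proteasome genes, whereas those of RT1-Ba, Cd74, RT1-DMa and Ciita overlap.

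The inducible proteasome subunits were lower with C-peptide in all 3 cases. Psmb8, the inducible chymotrypsin-like subunit, read 152 and 174 untreated and 85.0, 89.9 and 87.4 with C-peptide. It was 1.73-fold lower, -0.79 ± 0.14 on the log2 scale (adjusted p = 0.122 in limma). Psmb9 read 171 and 195 untreated and 106, 105 and 119 with C-peptide, a difference of -0.66 ± 0.14 (adjusted p = 0.169 in limma). Psmb10 differed less, at -0.31 ± 0.14 (adjusted p = 0.447 in limma), from 85.8 and 81.4 to 69.2, 62.7 and 60.6. Each had no overlap, and the C-peptide arrays of Psmb8 lay within a narrow band.

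The constitutive subunits that they replace were close to 0. Psmb5, the counterpart of Psmb8, was at 0.12 ± 0.18, Psmb6, that of Psmb9, at 0.03 ± 0.14 and Psmb7, that of Psmb10, at 0.03 ± 0.18, all with overlap. Within arrays, the log2 ratio of Psmb8 to Psmb5 differed by -0.91 between the groups, that of Psmb9 to Psmb6 by -0.70 and that of Psmb10 to Psmb7 by -0.35. In all 3 ratios the groups stood apart. An exact two-sided permutation test gave p = 0.2 for each, the smallest that 3 arrays against 2 allow, and 0.36 adjusted over the 9 ratios computed, which were chosen after the values were seen. Over 9 constitutive proteasome and activator genes measured, the median was 0.09, with 0 past an unadjusted p of 0.05 in either direction. Psmd1, which had the smallest p of that list, was at 0.23 ± 0.14, higher without overlap.

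**Figure D3:**
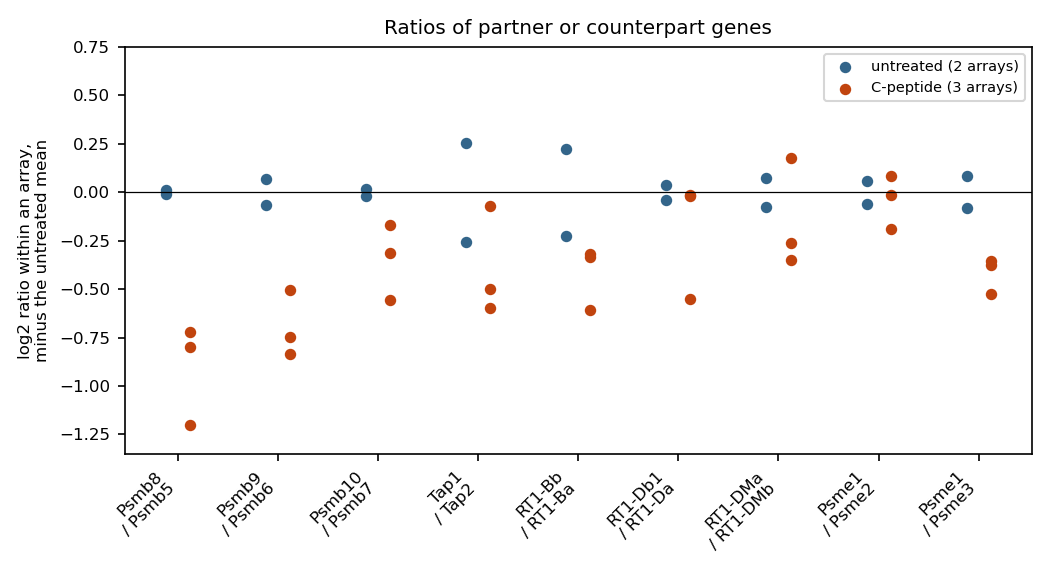
Log2 ratio of a pair of genes on each array, minus the mean of that ratio over the untreated arrays; blue points are untreated (2 arrays), orange points C-peptide (3 arrays). All C-peptide points lie below the untreated points for the 3 inducible over constitutive proteasome subunits, for RT1-Bb over RT1-Ba and for Psme1 over Psme3; in the other pairs the groups overlap.

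Psme1 and Psme2 form the PA28 activator, a cap that opens the proteasome. Psme1 was at -0.27 ± 0.14, from 927 and 963 to 769, 837 and 735, and Psme2 at -0.23 ± 0.15, from 500.0 and 566 to 494, 444 and 417. Both were lower without overlap, and so were their second probe sets, at -0.21 and -0.34. None of these had an unadjusted p under 0.05. Psme3 and Psme4, which encode activators of other kinds, were at 0.15 and 0.30. The ratio of Psme1 to Psme3 differed by -0.42 without overlap (exact permutation p = 0.2), and that of Psme1 to Psme2 by -0.04 with overlap (exact permutation p = 1).

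Tap1 and Tap2, which together form the peptide transporter, were both lower without overlap. Tap1 read 232 and 175 untreated and 136, 116 and 97.7 with C-peptide, 1.66-fold lower at -0.73 ± 0.19 (adjusted p = 0.215 in limma). Tap2 was at -0.34 ± 0.15 (adjusted p = 0.441 in limma), from 109.8 and 122 to 80.5, 96.8 and 88.0. Their ratio within arrays differed by -0.39, with overlap and an exact permutation p of 0.4. Tapbp, tapasin, was at -0.32 ± 0.17 and Erap1, the trimming aminopeptidase, at -0.31 ± 0.18, both without overlap and with an unadjusted p above 0.05.

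General chaperones of the endoplasmic reticulum showed little difference. Calr, calreticulin, was at -0.07, Canx, calnexin, at 0.15 and Pdia3, which works with tapasin, at -0.05, all with overlap. Of the 8 loading chaperones on the list, 1 had an unadjusted p under 0.05, Tapbpl, a relative of tapasin that edits peptides, at -0.47 ± 0.15, and without untreated animal 2 there were 0. Aminopeptidases and cytosolic peptidases that trim or break up peptides, a list that includes the member Erap1, lay partly the other way. Lap3 was at 0.53 ± 0.15 and Tpp2 at 0.46 ± 0.13, both higher without overlap, and Thop1 at -0.09. Of 8 on that list these 2 had an unadjusted p under 0.05, 1 without untreated animal 1 and 0 in the values as deposited.

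The class II members held chains that bind peptide and genes that serve them. The peptide-binding chains, RT1-Ba and RT1-Bb (the counterpart of HLA-DQ) and RT1-Da and RT1-Db1 (of HLA-DR), were all below 0 with a median of -0.37. RT1-Bb read 1169 and 1046 untreated and 599, 841 and 569 with C-peptide, a difference of -0.73 ± 0.20 (adjusted p = 0.238 in limma) without overlap. Its partner RT1-Ba was at -0.31 ± 0.20, from 786 and 966 to 725, 838 and 562, with overlap. RT1-Db1 was at -0.42 ± 0.18, from 374 and 422 to 350.1, 289 and 248, and RT1-Da at -0.23 ± 0.16, from 1728 and 1839.6 to 1597, 1323 and 1670.3. Both of these had no overlap, by a narrow margin. RT1-Bb and RT1-Db1 were the 2 class II genes with an unadjusted p under 0.05 in limma. Without untreated animal 1 there were 0, and without C-peptide animal 3 there was 1.

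Cd74, the invariant chain that guards the class II groove until peptides are loaded, read 5181 and 3967 untreated and 3023, 4104 and 3401 with C-peptide. The array of C-peptide animal 2 lay above that of untreated animal 2, so the groups overlapped, and the difference was -0.38 ± 0.19 (adjusted p = 0.508 in limma). RT1-DMa and RT1-DMb, which exchange the last piece of the invariant chain for peptide, were at -0.08 ± 0.15 and 0.07 ± 0.15. RT1-DMa read 418 and 401 untreated and 345, 386 and 434 with C-peptide, and RT1-DMb 354 and 378 and 396, 417 and 341. The groups of both overlapped. RT1-DOa and RT1-DOb, which restrain DM, were at 0.15 and -0.05, and RT1-Ha, near the floor of the table, at -0.24. Ciita, the master regulator of class II transcription, was dim and read 53.8 and 39.7 untreated and 56.3, 53.9 and 48.1 with C-peptide, at 0.14 ± 0.16. Over these 7 the median was -0.05, with 0 past an unadjusted p of 0.05 in limma. The sign of RT1-DMb turned to -0.04 in the values as deposited, taken relative to all probe sets.

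The difference between class I and class II was not tested. By array, the median deviation of the class I genes from their own mean was -0.23, -0.19 and -0.19 for the 3 C-peptide animals and 0.28 and 0.27 for the untreated ones. For antigen processing genes it was -0.13, -0.11 and -0.19 against 0.22 and 0.23. For class II genes it was -0.07, 0.02 and -0.07 against 0.08 and 0.04, a smaller gap, with the array of C-peptide animal 2 close to the untreated ones.

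Of 8 factors that act at MHC promoters, none had an unadjusted p under 0.05 in limma, with 1 lower without C-peptide animal 1. Their median was -0.05, and the member Ciita was counted among them. The smallest p values on this list belonged to Nfya, Rfxap and Rfxank. Nfya was at -0.30 ± 0.19 with overlap. Rfxap, at -0.20 ± 0.13, was lower and Rfxank, at 0.24 ± 0.16, higher, both without overlap. Rfx5, which binds the X box, was at 0.03 ± 0.13 with overlap. In the interferon gamma route, which induces both classes, the median over 9 genes was -0.31, and 3 had an unadjusted p under 0.05, all lower. Ifngr1, the ligand-binding receptor chain, read 419 and 459.9 untreated and 229.7, 286 and 277 with C-peptide, a difference of -0.71 ± 0.15 (adjusted p = 0.169 in limma). The other two were Irf8, a factor of myeloid cells, at -0.48 ± 0.15 and Socs1, a feedback inhibitor, at -0.54 ± 0.18. The count was 1 without untreated animal 2. Irf1, which binds the ISRE, was at -0.31 ± 0.26 with overlap, and the array of C-peptide animal 1 read 1062, above both untreated arrays.

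Of the class II route's proteases, cathepsin S (Ctss), which cuts the invariant chain in antigen-presenting cells, was lower at -0.72 ± 0.16 (adjusted p = 0.173 in limma), from 567 and 568 to 289, 361 and 372. The lysosomal protease Ctsd was higher at 0.39 ± 0.16 and Ctsh at 0.23 ± 0.13, and Lgmn was lower at -0.25 ± 0.16, each without overlap. Ctsh and Lgmn had unadjusted p values above 0.05. Ctsl, Ifi30 and Ctsb, at 0.19, 0.10 and -0.02, overlapped. MHC-like genes outside the complex lay on both sides. Cd1d1, which shows lipids to natural killer T cells, was at -0.43 ± 0.15, Azgp1, a secreted relative, at 0.44 ± 0.16 and Fcgrt, the neonatal Fc receptor of the proximal tubule, at 0.40 ± 0.20, each without overlap. None of these passed at an adjusted p of 0.05. At an unadjusted p under 0.05 the MHC-like list had 1 gene on each side, and 0 on both without untreated animal 1 and likewise without untreated animal 2. Its count of lower genes was also 0 without C-peptide animal 1 or C-peptide animal 3, and its count of higher genes 0 in the values as deposited. Ctsd, the only higher gene of its list at that threshold, no longer passed it in the values as deposited or when C-peptide animal 2, C-peptide animal 3 or either untreated animal was left out. Of 6 costimulatory and checkpoint genes measured, Cd48, an adhesion ligand of leukocytes, was lower at -0.62 ± 0.19, with an unadjusted p above 0.05 without untreated animal 2. By contrast, Icam1 (-0.21) had overlapping groups, and so had Cd80 (0.06) and Cd86 (0.00), the ligands of CD28.

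Markers of other cells differed alongside these genes. The summed intensity of 11 endothelial markers was 18770.0 to 21414 on the untreated arrays and 7871 to 11980.0 on the C-peptide arrays, with 10 of 11 below 0 and a median of -1.13. For 13 macrophage and dendritic cell markers it was 3982 to 3992 and 2443 to 3319, with 12 of 13 below 0 and a median of -0.57. Of these 13, 10 had an unadjusted p under 0.05, a count of 3 without untreated animal 1, 4 without untreated animal 2 and 5 without C-peptide animal 3. For 8 markers of T and natural killer cells it was 1812 to 1862 and 964 to 1217, with all 8 below 0 and a median of -0.35. Most of that sum's difference lay in the cytotoxic genes Nkg7, from 659 and 656 to 318, 215 and 132, and Gzmb, from 404 and 472 to 222, 354 and 273. Of the T cell genes, Cd2 was at -0.46 ± 0.19 without overlap, with an unadjusted p of 0.0399 in limma. Cd3d, Cd8a, Cd3e, Cd3g and Cd4 were at -0.07, -0.18, -0.31, -0.32 and -0.38, with unadjusted p values above 0.05. None of these markers was listed at 0 on any array. Aif1, Laptm5 and Cd68, genes of macrophages, were at -0.80, -0.62 and -0.62. On the same list Cd163 was at 0.12 and Csf1r at -0.43, both with overlap. Cd14, at -0.23, had an unadjusted p above 0.05. The B cell genes Ms4a1 and Cd79b, at -0.05 and 0.14, had small differences.

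Markers of the labelled cell type, the proximal tubule, were present. The summed intensity of 11 was 17451 to 21286 on the untreated and 24181 to 31013 on the C-peptide arrays. All 11 lay above 0, 7 of them without overlap (background 18.7%), and the groups of the other 4 overlapped. Interferon-stimulated genes, 12 on the list, had a summed intensity of 5177 to 5418 untreated and 2108 to 3285 with C-peptide and a median of -0.95. Of these 12, 11 lay below 0 and 9 were lower without overlap (background 14.9%). Ifit1 was at 0.22, and Ifit3 and Isg15 also had overlapping groups. The part of these markers in the MHC differences was not tested, and in bulk RNA fewer cells of a type and less RNA per cell cannot be told apart.

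**Figure D4:**
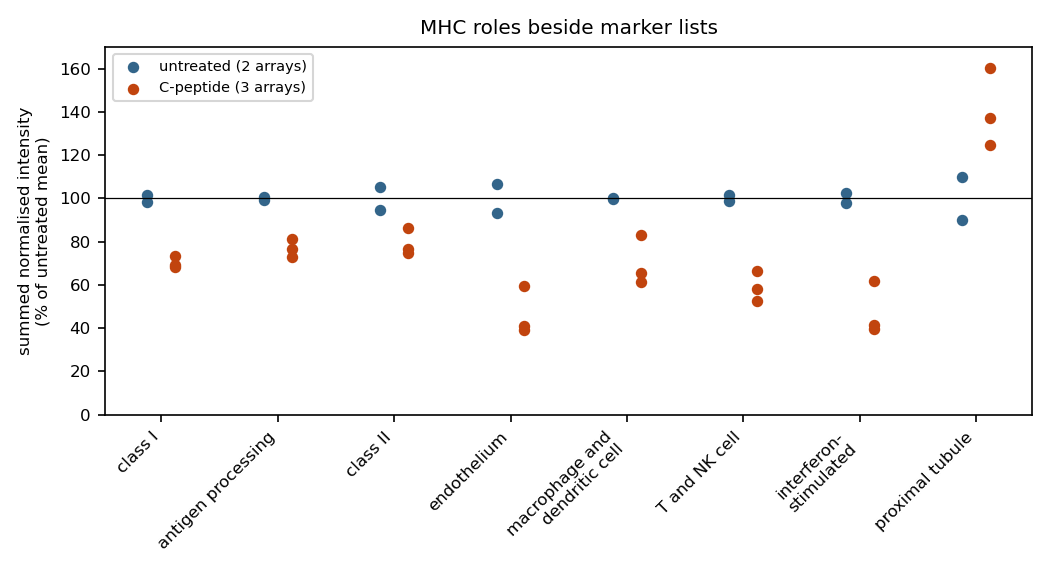
Summed normalised intensity of each gene group on each array, as a percentage of its mean over the untreated arrays; blue points are untreated (2 arrays), orange points C-peptide (3 arrays). The MHC groups lie between 68.2% and 86.4% on the C-peptide arrays, endothelial markers between 39.2% and 59.6%, and proximal tubule markers above 100%. Bright genes weigh most in such sums. In class I this is B2m (untreated mean 7300) and in class II Cd74 (untreated mean 4574), whose groups overlap.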

How the data were processed

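The authors deposited linear intensities, 1 per probe set. Expression Console 1.1 and PLIER are named, per the submitters' processing notes. How background and scale were handled, and the build behind the array, were not given in the sources used here. Array medians of the deposited intensities ran from 60.1 to 95.9, so the table was quantile normalised here on log2(intensity + 16), which understates the change of dim probe sets. Printed intensities are these values turned back, with 16 taken off. The model (limma 3.58.1, R 4.3.3) had group as its only term over all 5 arrays and gave two-sided p-values by eBayes, with Benjamini-Hochberg adjustment over 29215 probe sets and no filter on dim ones. The number of arrays limits the precision.

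Genes were named from the platform annotation: 15310 probe sets had 1 symbol, 323 several and 13582 none. Of those with 1 symbol, 15279 were found in RefSeq (GRCr8) by gene ID. Brightness is the mean deposited intensity over the 5 arrays, and 35 of the 47 genes were brighter than the median probe set. Members and lists were chosen with earlier results of these data known, and so was the choice of quantile normalisation. By rule, values in every array are given for members past an unadjusted p of 0.05, for partners of 1 complex and for B2m, Cd74 and Ciita. Of other lists, marker lists aside, up to 3 genes with the smallest p are named, with Psmb5, Psmb6, Psmb7, Irf1 and Rfx5. The marker genes named did not follow this rule. They, other genes named and all ratios of genes were chosen after their values were seen. Alternatives changed the normalisation, pseudocount, probe sets, prior, array weights, threshold and animals. Scripts were tested on simulated data.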

Additional observations from a re-analysis of the deposited data

How the results depend on the processing

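With 5 arrays, 0 probe sets passed at an adjusted p of 0.05 in limma. The count was 52 (46 lower) in the values as deposited, 29 with arrays centred on their median, 1 with a pseudocount of 1, 121 with 64, 392 among the brighter probe sets, 341 among those with 1 symbol, 208 with a trended and robust prior and 57 at an adjusted p of 0.1. Of the 47 genes 3, 7, 8, 4 and 1 passed with the pseudocount of 64, the brighter, the 1-symbol, the trended prior and the 0.1 threshold, and 0 otherwise. Their median, taken relative to all probe sets, was -0.39 as deposited and centred. Centring shifts all values of an array alike, so these relative values are the same by construction. Not taken relative, the median was -0.39 among the brighter, -0.41 with a pseudocount of 1 and -0.28 with 64.

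Leaving out 1 animal gave 11 to 23 genes at an unadjusted p under 0.05 (11 without untreated animal 1), 0 past an adjusted p of 0.05 and medians of -0.41 to -0.34. A lone untreated array was then assumed to vary like the others. In 40 of 47 genes the sign never turned. As deposited and centred, again relative to all probe sets, RT1-M1-2 was at 0.0024 and RT1-DMb at -0.037. Not taken relative, their deposited differences were -0.13 and -0.17. With 1 animal left out, RT1-CE11 ran from -0.071 to 0.54, RT1-M6-1 from -0.48 to 0.15, RT1-T18 from -0.31 to 0.088, Ciita from -0.022 to 0.30 and RT1-DOb from -0.40 to 0.29.

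Animal numbers 1 and 2 occur in both groups. Same-numbered arrays did not deviate together (r = -0.03 and 0.01 across probe sets), and they were not treated as pairs. The deviations of 2 untreated arrays mirror each other, so both values rest on the same contrast and cannot exclude pairing. With the number as a replicate block, 3 probe sets and 0 of the 47 genes passed at an adjusted p of 0.05. In that fit 18 of the 47 had an unadjusted p under 0.05, the median was -0.34, RT1-CE11 was at -0.071 and RT1-T18 at 0.088. Number 3 occurs only among the C-peptide arrays, so after normalisation its array had no part in the group difference of this fit.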
